A study of Mus musculus with 6 samples.

Results

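The even-alone peaks are the peaks listed for the even-numbered probes against the long noncoding RNA Bloodlinc that have no counterpart in the other captures of that RNA. They were chosen by overlap: a peak of the even-probe list counts as alone when no peak of the odd-probe list and no peak of the remaining Bloodlinc pulldown touches it by 1 bp or more. This left 15281 of 18114 even peaks, or 84.4% (95% exact Clopper-Pearson interval 83.8% to 84.9%, which covers only the counting of peaks), among 39762 peaks in the 6 lists of the series. The other 2833 even peaks are referred to as shared. Of these, 2522 met an odd peak only, 268 met both an odd and a pulldown peak, and 43 met a pulldown peak only. The choice used measured positions, so the count and every contrast between alone and shared peaks below are descriptions and carry no test.

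ChIRP (chromatin isolation by RNA purification) fixes RNA to chromatin and fishes for one RNA with biotinylated antisense oligonucleotides tiled along it, so that the DNA recovered reports where that RNA sat. The oligonucleotides are divided into even and odd pools that share the target RNA and no sequence, and the design uses their agreement to tell signal of the RNA from signal of the probes of a single pool. Bloodlinc, also named alncRNA-EC7, is transcribed from a super-enhancer, a dense group of enhancers, on mouse chromosome 11 and was studied for its part in red blood cell development.

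All 6 libraries came from MEL cells, a mouse erythroleukaemia line that enters an erythroid programme on treatment with dimethyl sulfoxide (DMSO), and all are labelled as day 5 in 2% DMSO. There was an even-probe capture, an odd-probe capture, a further pulldown whose label names no pool, an RNase-treated control, a no-probe control and the input. Each condition has 1 library, so no difference below has a replicate check. The peak names of the input carry a day 0 tag that goes against its label. The lists give positions on mouse build mm9 and the authors' score for each peak, without read counts, so the depth is unknown. The score has no stated unit and was compared only within a list. No mm9 sequence or gene annotation was used here, so the regions are given by position, counted from 1.

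Even-alone peaks filled the lower and middle part of the even list and thinned out at its top. Their scores ran from 350 to 3911 with a median of 991 and quartiles of 769 and 1366. The shared even peaks ran from 389 to 4732 with a median of 2491 and quartiles of 1947 and 2937. The ranges of scores thus overlapped almost throughout, while the interquartile ranges did not. Below the median of the whole even list, 1071.5, lay 57.4% of the even-alone peaks and 9.88% of the shared ones. At or above the shared median lay 213 even-alone peaks (1.39%), and at or below the even-alone median lay 232 shared peaks (8.19%).

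The share alone changed mainly in the upper deciles of score, which also span wider ranges of score than the middle ones. Cut into deciles by score, the even list was 97.3% alone in the lowest decile (1763 of 1812 peaks, interval 96.4% to 98%) and still 90.1% alone in decile 8 (1632 of 1811, 88.6% to 91.5%). In decile 9, with scores of 1856 to 2403, the share was 63.4% (1148 of 1811, 61.1% to 65.6%). In decile 10, from 2403 to 4732, it was 15.3% (278 of 1812, 13.7% to 17.1%). Most of the difference between alone and shared peaks therefore lay in the uppermost 2 deciles, and the lowest 6 deciles were at least 96.2% alone with no steady trend among them. On the scale of score itself the fall was gradual. Scores of 1600 to 1700 held 456 alone and 48 shared peaks, and 2000 to 2100 held 246 and 126. From 2400 to 2500 there were 87 and 138, and from 2800 to 2900 there were 18 and 161. Among the 104 even peaks with a rank of 100 or better (ties included) 3 were alone, among the 500 highest 12 were alone, and among the 1016 with a rank of 1000 or better 57 were alone.

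**Figure D1:**
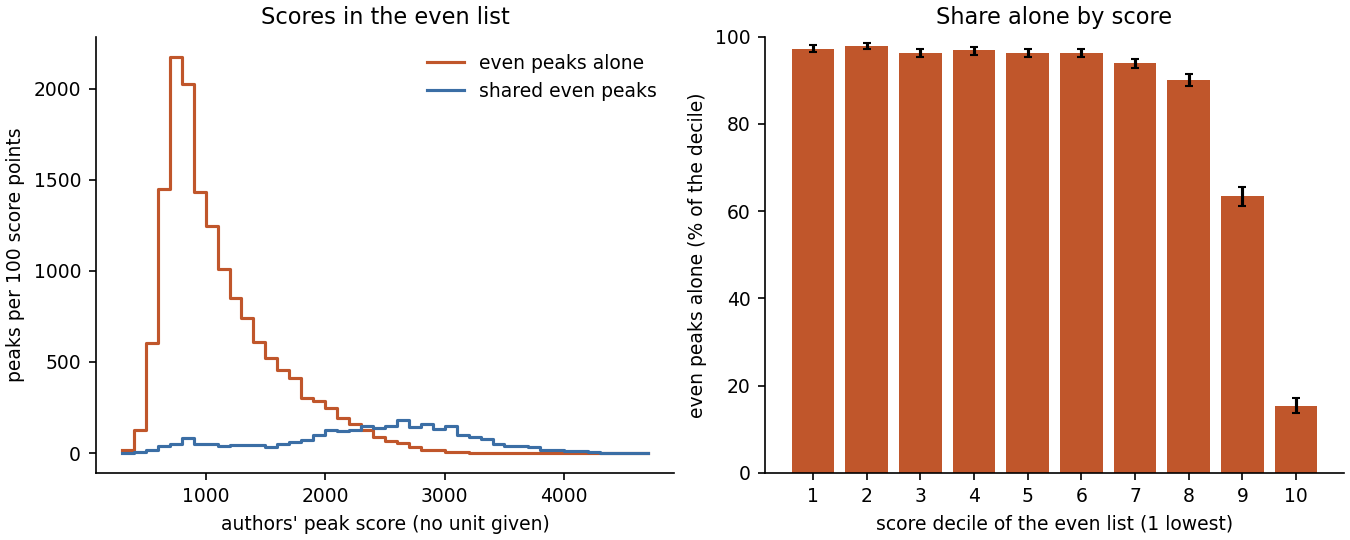
Left, number of even-alone and shared even peaks per 100 points of the authors' score (x axis, no unit given). Right, even-alone peaks as a percentage of each score decile of the even list, with exact 95% binomial intervals. The share is 90.1% or more up to decile 8, then 63.4% and 15.3%. Deciles span unequal ranges of score.

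The highest even-alone peak, chr4:150045944-150046793, was 850 bp wide with a score of 3911 and rank 51 of the even list. Its nearest odd peak lay 45.6 kb away, at rank 11171 of the odd list. A further even-alone peak, 588 bp wide with a score of 2718, began 399 bp from it, so the signal of the even probes here covered a pair of adjoining peaks with no odd counterpart. The next, chr4:129774232-129774936, had a score of 3836, and the third, chr9:63825088-63825596, a score of 3770. Both had odd peaks no nearer than 40.8 kb.

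The remaining 7 of the 10 highest scored from 3328 down to 3144 and lay on 7 chromosomes. They were chr12:89951607-89952156 (score 3328), chr17:86977092-86977854 (3236), chr15:35805961-35806484 (3229), chr16:54024434-54024996, chr2:31912984-31913502 and chr8:42845903-42846411 (3167 each), and chr9:111228897-111229427 (3144). The gap in score between the third and the fourth, from 3770 to 3328, was the widest among these 10. The nearest odd peak was 6.97 kb away for the chromosome 12 peak and 75.7 kb away for the chromosome 16 peak, the nearest and the farthest of the 10. Those nearest odd peaks were mostly of low or middle rank in the odd list, from 2692 beside the chromosome 2 peak to 16397 beside the chromosome 15 peak. The nearest even neighbour of each of the 10 was itself alone, as it was for 84% of all even-alone peaks.

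On chromosome 11, which encodes Bloodlinc, the highest even-alone peak was chr11:69570783-69571285, with a score of 3121 and rank 479. Its nearest odd peak was 48.3 kb away and its nearest pulldown peak 4956.5 kb away.

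Even-alone peaks were narrower than shared ones. Their median width was 425 bp (quartiles 390 and 470 bp) against 532 bp (488 and 569 bp) for shared even peaks, and together they covered 6654.9 kb against 1510.0 kb. Width rose with score within both sets: across peaks, Spearman's rho of score and width was 0.61 (Pearson's r 0.51) for the 15281 even-alone peaks and 0.566 (0.459) for the 2833 shared ones. These correlations are across peaks of 1 library, which are not independent. A wider peak also has more bases that another peak can touch, and the part of this in the width difference was not tested. Under a reciprocal overlap of 50% the median width of even-alone peaks was again 425 bp. That setting moved the share alone only from 84.4% to 84.8%, so it cannot measure what the width of a peak contributes.

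Within score deciles the difference in width was much smaller, though it kept its sign in each of the 10. Even-alone peaks had a median of 383 bp in decile 1, against 395 bp for the 49 shared peaks there. In decile 5 the medians were 420 bp and 442 bp, and in decile 10 they were 530 bp and 553 bp. The difference (alone minus shared) lay between -25 and -5 bp, where for the sets as a whole it was -107 bp. Scores still differ within a decile, most of all in decile 10, and these medians are not adjusted for that. With the even list cut into 4 equal parts by width, 97.7% of the narrowest part (200 to 396 bp) and 54.7% of the widest part (494 to 2987 bp) were alone.

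**Figure D2:**
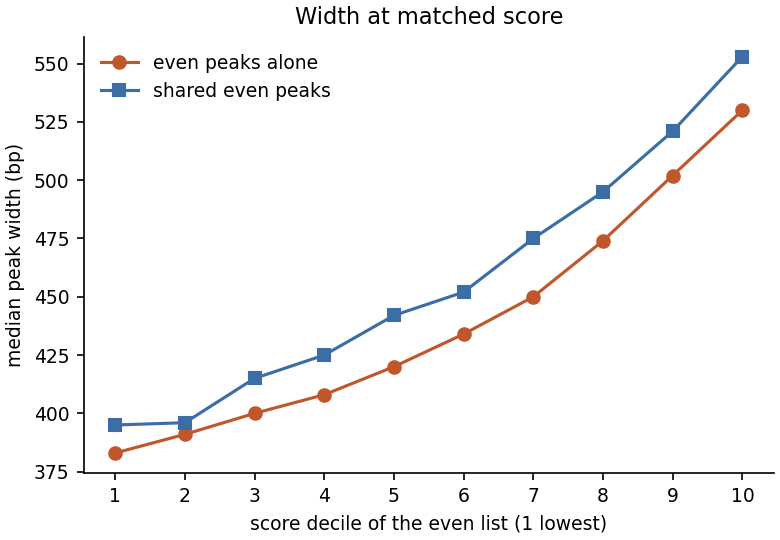
Median peak width in bp (y axis, not starting at 0) of even-alone and shared even peaks in each score decile of the even list; no error bars are drawn. Both lines rise with score and the even-alone line lies 5 to 25 bp below the shared line.

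Few even-alone peaks had extreme widths, as 373 (2.44%) were under 300 bp and 9 were over 1000 bp. The widest was chr2:116370882-116372314, of 1433 bp, with a score of only 2033 (rank 2951). The next was chr11:99809689-99810949, of 1261 bp, with a score of 1262 and rank 7106, and its nearest odd peak was 156 kb away. The third was chr7:89401521-89402735, of 1215 bp, with a score of 2985 and rank 665. The widest even-alone peaks were thus not the highest ones.

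Even-alone peaks lay about as far from odd peaks as shared even peaks did from the next odd peak. The median number of bases from the edge of an even-alone peak to the nearest odd peak was 35 kb (95% interval of the median from order statistics 34 to 35.7 kb; quartiles 13.8 and 75 kb). For shared even peaks, with the odd peaks that touch them set aside, it was 36.1 kb (33.9 to 38.1 kb; quartiles 13.2 and 77 kb). An odd peak lay within 1 kb of 350 even-alone peaks (2.29%), within 10 kb of 2923 (19.1%) and within 100 kb of 12726 (83.3%). The matching shares for shared peaks were 2.65%, 19.3% and 82.7%. Within each pair the shares differed by under 1 percentage point. Within 100 bp the counts were small and less alike, at 38 even-alone peaks (0.249%) and 3 shared peaks (0.106%).

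**Figure D3:**
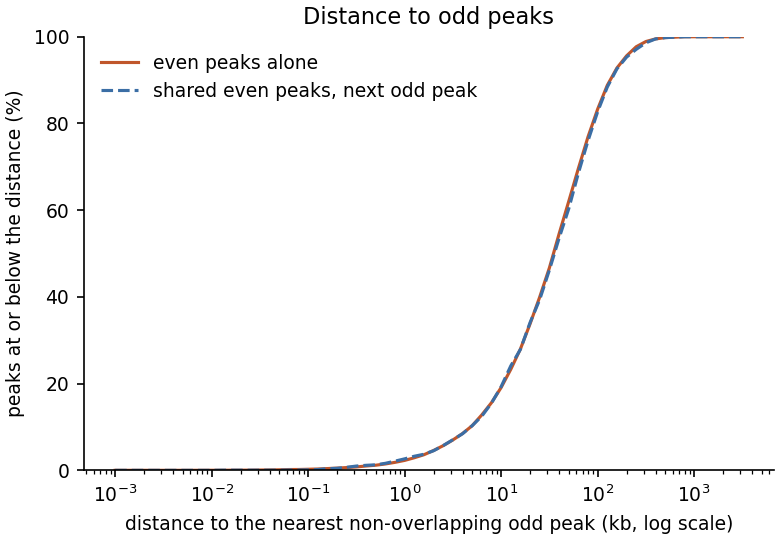
Cumulative percentage of peaks (y axis) by distance to the nearest non-overlapping odd peak in kb (x axis, log scale), for even-alone peaks and for shared even peaks. The curves lie nearly on each other, with medians of 35 kb and 36.1 kb.

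The score of an even-alone peak differed little with its distance from odd peaks. The 350 with an odd peak within 1 kb had a median score of 941 and a median width of 423 bp. The 2555 with none within 100 kb had a median score of 993 and a median width of 426 bp. Nor did the odd peaks near them stand out, as the median score was 1127.5 among the 348 odd peaks nearest to the first group and 1145 in the whole odd list. By score decile, the median distance ranged from 29.1 kb in decile 10 to 37.2 kb in decile 2.

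The edge of the rule fell among few peaks. The even-alone peak closest to an odd peak, chr11:78737354-78737765 (score 431), abutted an odd peak of 364 bp with no base between. Next came chr12:119194471-119194858 (score 1156), with 7 bases between it and an odd peak of rank 835, and chr1:43634385-43634811 (score 879), with 9 bases between. Just outside the rule, the shared even peak chr8:66683307-66683785 (score 974) overlapped an odd peak by 1 bp. The peaks chr13:81536293-81536726 (score 1050) and chr17:88710027-88710434 (score 590) overlapped by 2 and 14 bp. In all, 38 even-alone peaks lay within 100 bp of an odd peak, and 15 of the 2790 even peaks with an odd partner overlapped it by under 100 bp. The median overlap was 439 bp, so shared peaks mostly coincided and did not just touch.

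Pulldown peaks were rare, and so were far from most even-alone peaks. The median distance was 1805.9 kb, and 10 even-alone peaks had a pulldown peak within 1 kb. For shared even peaks, with pulldown peaks that touch them set aside, the median distance was 1661.7 kb.

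The numbers in the peak names may bear on what lay between the listed peaks. In the even, odd and pulldown lists the number rises along the file without exception, in order of position, and many numbers are skipped. Numbers run to 124782 for the 18114 even peaks. If the missing numbers were peaks set aside by a later selection, which the sources used here do not state, the skipped numbers count how many lay between listed neighbours. Around an even-alone peak, between its listed even neighbours on either side, a median of 10 even numbers were skipped, or 47.8 per Mb. Around shared even peaks the median was also 10, or 47.4 per Mb. Under that reading, numbered even peaks were about as dense around both.

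The odd names were read in the same way. Of the 15246 even-alone peaks with an odd peak on each side, 166 (1.09%) lay in an interval where no odd number was skipped, so that no numbered odd peak of any kind lay there under that reading. Their median score was 796. None had a rank of 1000 or better, but only 57 of the other 15080 did, so 166 peaks are too few to show a difference. These 166 lay a median of 4.6 kb from an odd peak, since short intervals hold fewer numbers. The highest of them were chr12:113270505-113271008 with a score of 1793, chr8:29420340-29420788 with 1652 and chr8:37372968-37373440 with 1528, 3 regions singled out after their values were seen. For the other 15080, a median of 993 in score, 1 or more odd numbers were missing between the flanking odd peaks. For those, an unlisted odd peak at the same place can neither be shown nor dismissed from the lists.

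Most even-alone peaks stood by themselves. Another even peak lay within 10 kb of 17.8% of them (2721) and of 17.5% of shared even peaks (495), and the median distance to the nearest other even peak was 39.4 kb and 41.3 kb. That nearest even neighbour was an even-alone peak for 84% of even-alone peaks and for 85.3% of shared ones, both near the 84.4% that even-alone peaks make up of the list. Alone and shared peaks were thus mixed along the chromosomes, with no sign in these shares that either kind kept to its own. Among the 278 even-alone peaks of the highest score decile, 14 (5.04%) had another even peak within 1 kb, against 298 (1.99%) of the other 15003. That contrast rests on 14 peaks. At 10 kb the deciles were more alike, with 21.6% in the highest and 16.6% to 19.7% in the others.

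Joined wherever 10 kb or less lay between them, the even-alone peaks formed 966 pairs, 121 groups of 3, 8 groups of 4, 2 groups of 5 and 1 group of 10. The other 12934 (84.6%) remained single. Only even-alone peaks were joined, so a single one could still have a shared even peak within 10 kb. Grouped peaks had a median score of 958 and a median width of 424 bp, against 993 and 425 bp for single ones. By these medians grouped peaks were neither higher nor wider, although in the highest score decile the share with an even peak within 1 kb was the 5.04% given above, from 14 peaks. The group of 10 stood apart in size, with the next largest holding 5.

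The group of 10 spanned chr2:116361581-116388455, a stretch of 26.9 kb of which the peaks covered 30.5%. It held the widest even-alone peak of the genome, and the median width of its members was 754 bp against 425 bp over all even-alone peaks. Their scores ran from 750 to 2033 with a median of 917, and 3 of the 10 were above the median of the even list. From left to right the scores were 1089, 769, 2033, 936, 898, 787, 750, 750, 941 and 1447, and the widths 1098, 384, 1433, 822, 756, 705, 577, 751, 947 and 733 bp. The closest pair was 57 bp apart. No shared even peak lay within the stretch, the nearest odd peak was 67.8 kb away and the nearest pulldown peak 684 kb away. Between the first and last names of the group 7 even numbers were skipped.

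**Figure D4:**
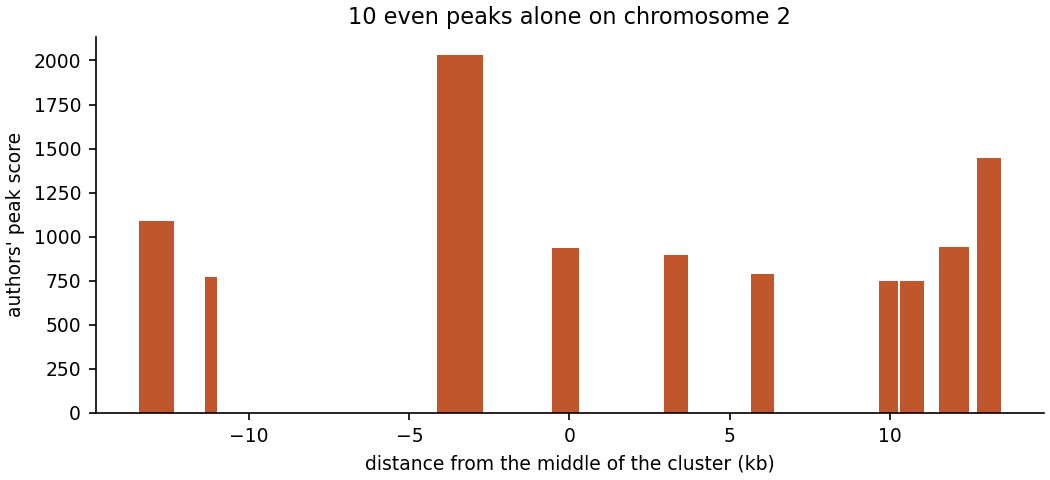
The 10 even-alone peaks of the chromosome 2 group, drawn as bars as wide as each peak at their distance in kb from the middle of the stretch (x axis), with the authors' score as height (y axis, from 0). The widest bar, of 1433 bp, is also the highest, at 2033, and no odd peak lies in the plotted range.

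Both groups of 5 lay on chromosome 5, with 82.5 kb between them. The first, chr5:36800195-36822648, had scores of 590 to 1308 and widths of 406 to 485 bp, with its nearest odd peak 36.2 kb away. The other, chr5:36905196-36922593, had scores of 968 to 1746 and widths of 381 to 511 bp, with its nearest odd peak 30.5 kb away. The interval between them held 4 further even peaks and no odd peak. Unlike the group on chromosome 2, these peaks were of ordinary width.

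Density varied between chromosomes, in an order close to that of the other peaks. Over the span of positions in any list, even-alone peaks numbered 5.95 per Mb and shared even peaks 1.1 per Mb. Chromosome 15 was the densest, with 886 even-alone peaks or 8.84 per Mb (95% Poisson interval 8.27 to 9.44). Chromosome 19 followed with 492 peaks or 8.46 per Mb (7.73 to 9.24), and chromosome 9 with 966 or 7.99 per Mb (7.49 to 8.51). The intervals of these 3 overlap, which by itself does not decide their order, and the order was not tested. At the low end, chromosome 14 had 4.98 per Mb (580 peaks, 4.58 to 5.4), chromosome X 3.04 per Mb (491 peaks, 2.78 to 3.33) and chromosome Y 1.5 per Mb (4 peaks, 0.41 to 3.85). The intervals cover counting only. MEL cells are a transformed line, and the number of copies of each chromosome was not measured here, so its part in these densities was not tested.

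Shared even peaks had their highest density on chromosome 15 too, at 1.78 per Mb, and 0.577 per Mb on chromosome X. Across the 20 chromosomes other than Y, the densities of even-alone and shared even peaks had Spearman's rho of 0.762 (Pearson's r 0.875). Those of even-alone and of odd-alone peaks, that is odd peaks that touch no even and no pulldown peak, had rho 0.842 (r 0.953). These points share the build and the cells, and the even densities also the library. The share of a chromosome's even peaks that were alone moved little, from 82% on chromosome 14 (interval 79% to 84.8%) to 86.9% on chromosome 19 (83.9% to 89.6%), apart from chromosome Y, where it was 4 of 6 peaks. Median scores of even-alone peaks were 937 to 1031 and median widths 419 to 432 bp on the 20 chromosomes.

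**Figure D5:**
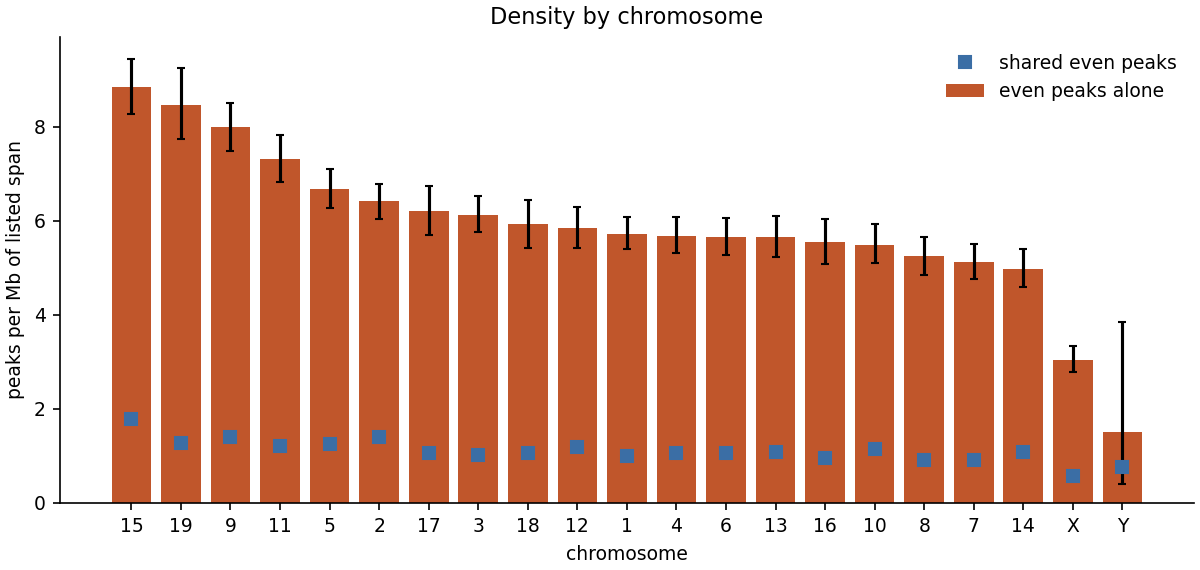
Even-alone peaks per Mb of the span of listed positions for each chromosome (bars, with 95% Poisson intervals) and shared even peaks per Mb (squares), ordered by the former. Chromosome 15 is highest for both, at 8.84 and 1.78 per Mb, and chromosomes X and Y are lowest in even-alone peaks.

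The numbers in the even names, whose skipped values may or may not stand for peaks, had a partly similar order. They came to 60.8 per Mb on chromosome 19 and 60 on chromosome 11. Chromosome 15 had 59.7 per Mb, chromosome 9 had 57.7 and chromosome X had 25.9. Chromosome 3 had 44.3 per Mb, among the lowest, although it was above the mean density in even-alone peaks, with 6.13 per Mb. Relative to these numbers, the even-alone peaks made up 14.8% on chromosome 15, 13.9% on chromosome 19 and 11.8% on chromosome X. The lowest shares were 10.8% on chromosome 8 and 11% on chromosome 7. Chromosome 15 was thus 2.9 times as dense as chromosome X in even-alone peaks, and 1.26 times as high in this share.

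At the scale of 1 Mb windows, even-alone peaks were present nearly everywhere. Of 2583 windows, 123 (4.76%) held none, the median was 5 and the maximum 33. Counts of even-alone and odd-alone peaks per window had rho 0.581 (r 0.597), and those of even-alone and shared even peaks rho 0.359 (r 0.417), where shared peaks were few, with a median of 1 per window. The fullest windows, singled out after their values were seen, were 113 to 114 Mb of chromosome 12 with 33 even-alone and 28 odd-alone peaks, and 95 to 96 Mb of chromosome 3 with 32 and 27. A window with an uneven pair of counts was 104 to 105 Mb of chromosome 3, with 27 even-alone peaks, 7 odd-alone peaks and 1 shared even peak.

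The controls had almost no peaks in common with the even-alone set. No even-alone peak met any of the 124 no-probe peaks or the 141 RNase peaks, and 1 lay within 1 kb of an RNase peak. A single even-alone peak, chrY:1487172-1487426, met an input peak. It was 255 bp wide with a score of 448 (rank 18056 of 18114), and the input peak there, chrY:1487166-1487209, had a score of 249 within the input list. None of the shared even peaks met a control or input peak either. These lists are short, and an absence of peaks from them does not measure the signal of the controls at these positions.

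The odd-alone peaks are the counterpart in the other pool, and they were similar in number, spacing and width. They were 17602 of 20596 odd peaks, or 85.5% (85% to 85.9%). Their median width was 439 bp against 425 bp, and the median distance to the nearest even peak was 40.7 kb. Another odd peak lay within 10 kb of 18.8% of them. The sets parted in how they sat within their own lists. Even-alone peaks had a median score of 991 where shared even peaks had 2491, while odd-alone peaks had 1164 where the odd peaks that were not alone had 1093.5.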

How the data were processed

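Each of the 6 libraries has 1 deposited peak list without a header (chromosome, start, end, name, score). The submitters' processing notes name Bowtie2, bedtools and the build mm9. Versions, the peak caller, its thresholds and the score's scale were not given in the sources used here. The score is the authors' deposited value, used only for comparisons inside 1 list. The consensus list of the series was not used here.

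Starts were read as counted from 0 and are printed from 1. Peaks overlapping by 1 bp or more were shared. Distances are bases between edges. Groups of peaks have gaps of at most 10 kb. Density uses the span of positions in any list. Intervals are 95%: Clopper-Pearson for shares, Poisson for densities and order statistics for medians. They cover counting only, and neighbouring peaks are not independent. With 1 library per condition no test was made. The distance routines were tested on simulated peaks. Python 3.11.15, numpy 2.4.6, pandas 2.3.3, SciPy 1.17.1 and matplotlib 3.10.9 were used.

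The members, descriptions and alternatives were chosen with earlier results of these data known. The rule for naming regions took the 10 highest, the 3 widest, the highest of chromosome 11, the 3 nearest an odd peak, the 3 smallest overlaps, the 3 largest groups, any meeting a control, and the 3 densest and 3 sparsest chromosomes.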

Additional observations from a re-analysis of the deposited data

How the results depend on the processing

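Of 20 alternative settings over 6 results, 10 left the value within its counting interval and 10 moved it. The share of even peaks that were alone (84.4%) was 84.8% under a reciprocal overlap of 50% and 84.6% without the pulldown list. It was 82.4% when gaps of up to 1 kb counted as shared, 92.8% against only the top 50% of odd peaks by score, and 71.8% within the top 50% of even peaks. Against the top 50% of odd peaks, the median score was 1031 and the median distance to an odd peak 71.8 kb, where fewer odd peaks enter by construction. The top 50% of even peaks by score leaves fewer even peaks by construction, and width rose with score. In that setting the median width was 464 bp and the share with an even peak within 10 kb was 8.83%. The highest density there, still on chromosome 15, was 3.5 per Mb. The clustered share was 2.04% at 1 kb and 79.8% at 100 kb. Depth is unknown, so no detection limit can be given. No paired analysis was possible because each condition has 1 library.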
